A study of Mus musculus with 18 samples.

Results

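Aminoacyl-tRNA synthetases are the enzymes that load each amino acid onto its transfer RNA, the step that supplies the ribosome with building blocks. The genes of this family were taken by symbol from the deposited tables: every symbol made of a single amino acid letter followed by ars, with or without a final 1 or 2, together with Farsa, Farsb, Eprs and Tarsl2. This gave 38 of the 14411 genes listed in the series. All 38 were listed in Brain (of 13957 genes) and in Retina (of 12827), and 19 of them in Choroid (of 7569). By the place where the enzyme is known to work, 19 were cytosolic, 17 were mitochondrial and 2 (Gars and Kars) serve both compartments from a single gene. The Choroid table held 14 cytosolic members, both shared ones and 3 mitochondrial ones, Cars2, Iars2 and Lars2.

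Mitochondria translate their own messages with a separate enzyme set that is encoded in the nucleus and imported, so most amino acids have a pair of genes. Several cytosolic synthetases are held together by scaffold proteins in the multisynthetase complex. Many cytosolic synthetase genes are also known targets of Atf4, a transcription factor made when amino acids run short or the endoplasmic reticulum is under stress, and Wars, the tryptophanyl enzyme, is a classical interferon gamma response gene.

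All libraries came from mice given tamoxifen that carried both Cdh5(PAC)-cre/ERT2+ and NuTRAP+. The Cdh5 promoter, active in vascular endothelium, drives the inducible recombinase, and recombination switches on NuTRAP, which puts GFP on the large ribosomal subunit. Translating ribosome affinity purification then pulls those ribosomes down with an anti-GFP antibody (the Positive fraction), and an aliquot of cleared homogenate kept back before the pull-down is the Input. The 6 groups were Brain Input, Brain Positive, Retina Input, Retina Positive, Choroid Input and Choroid Positive, with 3 libraries each, called biological replicates in the series design. The labels give neither age, nor how many animals went into a library, nor whether animals were pooled. The p-values therefore measure the spread between these libraries, part of which may be technical.

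The depth of a library, as the total over its listed genes, ran from 28128866 to 43219831 counts in Brain and from 12325658 to 36157140 in Retina. Choroid was shallower, with 2018126 to 10031274 in Input and 713733 to 2717264 in Positive, and its synthetase differences carried larger errors. Cdh5, the endothelial cadherin, was higher in Positive in each tissue, by 5.11 ± 0.07 (SE) on the log2 scale in Brain, 6.63 ± 0.36 in Retina and 2.94 ± 0.27 in Choroid. Of 10 endothelial markers, 10, 9 and 10 were higher in the Positive fraction of Brain, Retina and Choroid. Marker mRNAs of other cell types were still counted there. The 9 photoreceptor markers summed to 3.40 to 4.03% of listed counts in Retina Input and to 2.69 to 4.51% in Retina Positive, with none at 0, while the 10 endothelial markers reached 0.272 to 0.528% in Retina Positive. Taken singly, 4 of the 9 photoreceptor markers were lower in Retina Positive and 0 higher, beside 10.8% and 15.3% of all Retina genes. Their log2 changes ran from -3.08 to 0.15, with a median of -0.21. In Brain the 8 neuronal markers summed to 0.815 to 0.871% in Input and 0.313 to 0.356% in Positive, and 5 fibroblast markers, all higher in Positive, to 0.0121 to 0.0129% and 0.138 to 0.205%. The 5 measured markers of retinal pigment epithelium, all lower in Positive, summed to 1.87 to 3.33% in Choroid Input and 0.153 to 0.282% in Choroid Positive. The part of these cells in the synthetase values was not tested, and in bulk RNA fewer cells of a type cannot be told apart from less of an mRNA per cell. Choroid Positive 2 stood apart, with 13% of its listed counts in Rn45s, the ribosomal RNA precursor, against 0.0657 to 1.09% in the other 17 libraries. Lars2 is therefore given separately for Choroid and is left out of every count there.

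In Brain, most synthetase mRNAs that changed were lower on the tagged ribosomes than in whole tissue. Of the 38 genes, 20 (52.6%) were lower in Positive and 7 (18.4%) were higher at a Benjamini-Hochberg adjusted p under 0.05 in edgeR's quasi-likelihood test. Among all genes tested in Brain, 39.7% were lower and 38.3% higher, 78.1% in all. The median synthetase change was -0.24 on the log2 scale, against -0.02 for all genes. Together the mRNAs of the cytosolic and shared enzymes made up 0.220% ± 0.0026 (SD, n = 3) of the Input counts and 0.169% ± 0.00044 of the Positive counts. The mitochondrial ones without Lars2 made up 0.0355% ± 0.00055 and 0.0299% ± 0.0010.

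**Figure D1:**
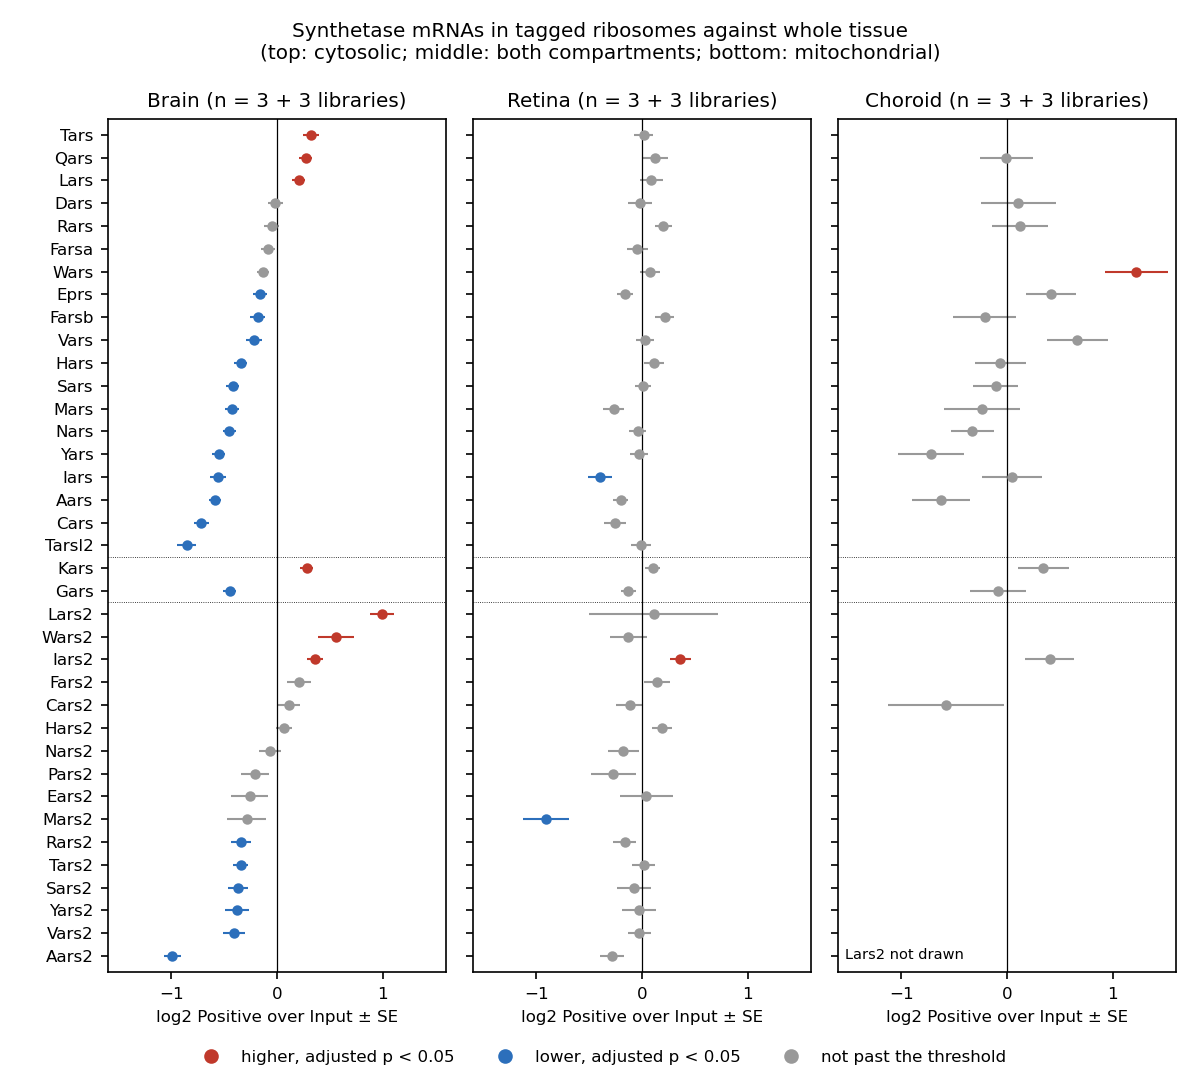
Log2 fold change of synthetase mRNAs, Positive over Input, in Brain, Retina and Choroid (points, fitted value; bars, SE; 3 Input and 3 Positive libraries per tissue). Of the 37 synthetases drawn, blue points were lower and red points higher at an adjusted p under 0.05: 19 and 7 in Brain, 2 and 1 in Retina, 0 and 1 in Choroid, where Lars2 is not drawn.

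The strongest decreases in Brain fell on Aars2, Tarsl2 and Cars. Aars2, the mitochondrial alanyl enzyme (chr17:45506841-45520843, plus strand, GRCm38), stood at 48.2, 47.1 and 46.8 normalised CPM (counts scaled to the effective library size) in the Input libraries and at 22.1, 25.7 and 23.6 in the Positive ones. The groups did not overlap, and the log2 difference was -0.99 ± 0.08 (adjusted p = 1.4e-06, edgeR). Tarsl2, a second threonyl synthetase of the cytosol (chr7:65644898-65692091, plus strand), read 30.9, 35.5 and 33.8 CPM in Input and 17.3, 18.7 and 19.5 in Positive. Every Positive library lay below every Input library, with a log2 difference of -0.85 ± 0.09 (adjusted p = 1.1e-05, edgeR). Cars, the cytosolic cysteinyl enzyme (chr7:143557230-143600090, minus strand), read 51.2, 47.2 and 47.5 CPM against 30.1, 28.7 and 29.9, a change of -0.72 ± 0.07 (adjusted p = 6.5e-06, edgeR). These 3 genes kept their calls in every alternative that was run for them.

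The other cytosolic enzymes that fell were spread over both structural classes of synthetase. Aars fell by 0.59, Iars by 0.56, Yars by 0.55, Nars by 0.45, Mars by 0.43, Sars by 0.42 and Hars by 0.34 on the log2 scale, each with an SE of 0.08 or less. Smaller decreases of 0.22 for Vars, 0.18 for Farsb and 0.16 for Eprs passed the threshold narrowly. Eprs, which joins a glutamyl and a prolyl enzyme in a single chain, lost its call in 8 of 12 alternatives, among them the fit with replicate number as a block (adjusted p = 0.06). Farsb lost it in 5 and Vars in 4. Tars, Qars and Lars rose, by 0.32, 0.27 and 0.20. Dars (-0.02), Rars (-0.05), Farsa (-0.09) and Wars (-0.13) did not pass.

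The enzymes of the multisynthetase complex did not move as a block in Brain. Of its 8 genes, Kars, Qars and Lars were higher (37.5%), Iars, Mars and Eprs were lower (37.5%), and Dars and Rars did not pass. These shares were close to those over all Brain genes, 38.3% higher and 39.7% lower. The genes that serve both compartments also parted: Kars, the lysyl enzyme, rose by 0.28 ± 0.06 and Gars, the glycyl enzyme, fell by 0.45 ± 0.06. Kars read 98.4, 96.5 and 94.9 CPM in Input and 121, 118 and 113 in Positive. Gars went the other way, from 160, 168 and 160 CPM to 115, 124 and 118.

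Among synthetases known as Atf4 targets most were lower in Brain Positive. Of these 12, 9 fell, 2 rose (Tars and Lars) and Wars did not pass, with a median of -0.44. Of the other 9 cytosolic or shared enzymes 4 fell and 2 rose, with a median of -0.09. The difference between these lists was not tested. Outside the synthetases the Atf4 list went both ways: 11 of its 23 measured genes were higher in Brain Positive and 8 were lower. Its values ran from -1.46 to 4.15, with a median of 0.07. Over all Brain genes 38.3% were higher and 39.7% lower. Atf4 itself was 0.32 higher, and its targets Trib3 and Nupr1, both stress-induced regulators, were higher by 3.82 and 4.15.

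Atf4 binds with C/EBP partners at a composite element whose core reads TGATGNAA. A search of both strands ran from 250 bases before to 50 bases after the start in RefSeq promoters of GRCm38.p6. That core was found in 5 (17.9%) of the 28 synthetase genes matched to a promoter by gene identifier. Counted per promoter rather than per gene, 3.97% of 32851 promoters of the same length held it. The stretches of 30 bases around the match are shown for 4 genes that were past the threshold in Brain, Gars, Iars and Yars as lower and Tars as higher. The fifth gene, whose stretch is not reported here, was also past the threshold there, as lower. Capitals mark the match, which reads TTNCATCA where it lies on the other strand. A match describes letters in this window and is not evidence that the factor binds there.
Gars (chr6:55037960-55037989, plus strand, match from base -30): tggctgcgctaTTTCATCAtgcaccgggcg
Iars (chr13:49682126-49682155, plus strand, match from base 8): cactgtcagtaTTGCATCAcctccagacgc
Tars (chr15:11399655-11399684, minus strand, match from base -15): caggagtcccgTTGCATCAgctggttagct
Yars (chr4:129189895-129189924, plus strand, match from base 4): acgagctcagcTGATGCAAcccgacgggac

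Among the 17 mitochondrial enzymes in Brain, 7 fell (41.2%) and 3 rose (17.6%), beside 39.7% and 38.3% of all Brain genes. Besides Aars2, those that fell included Vars2 (-0.41), Yars2 (-0.38), Sars2 (-0.37), Tars2 (-0.34) and Rars2 (-0.34). Cars2, Ears2, Fars2, Hars2, Mars2, Nars2 and Pars2 did not pass, with values between -0.29 and 0.21. Hars and Hars2 share 195 exon bases on opposite strands, so their reads are separable only if strand was used in counting, which the sources used here do not state.

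The mitochondrial enzymes that rose in Brain were Lars2, Wars2 and Iars2. Wars2, the mitochondrial tryptophanyl enzyme (chr3:99141068-99239186, plus strand), was scarce, at 4.70, 5.35 and 5.68 CPM in Input and 7.98, 9 and 6.28 in Positive. It rose by 0.56 ± 0.17 (adjusted p = 0.011, edgeR), with the lowest Positive library just above the highest Input library. Iars2, the mitochondrial isoleucyl enzyme (chr1:185284726-185329396, minus strand), read 44.5, 49.6 and 51.8 CPM against 60.2, 65.6 and 61.6, a rise of 0.36 ± 0.08 (adjusted p = 0.0014, edgeR). Iars2 shares 2034 exon bases with Rab3gap2 on the other strand. Rab3gap2 changed by -0.59 ± 0.08 in Brain, opposite to Iars2, and by 1.19 ± 0.26 in Choroid.
The core of the NRF1 site is CGCATGCG, a palindrome bound by a known activator of nuclear genes for mitochondrial proteins. It was found in the promoters of 2 of the 28 synthetase genes (7.14% of genes, against 1.87% of all promoters). They belong to Wars2, which rose, and Vars2, which fell, and capitals again mark the match. Vars2 holds a second match from base -21, which is not shown.
Wars2 (chr3:99141016-99141045, plus strand, match from base -63): cagaggacaggCGCATGCGtagtaagcaca
Vars2 (chr17:35667621-35667650, minus strand, match from base -47): agagtcttttaCGCATGCGcctgcgtgtcc

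**Figure D2:**
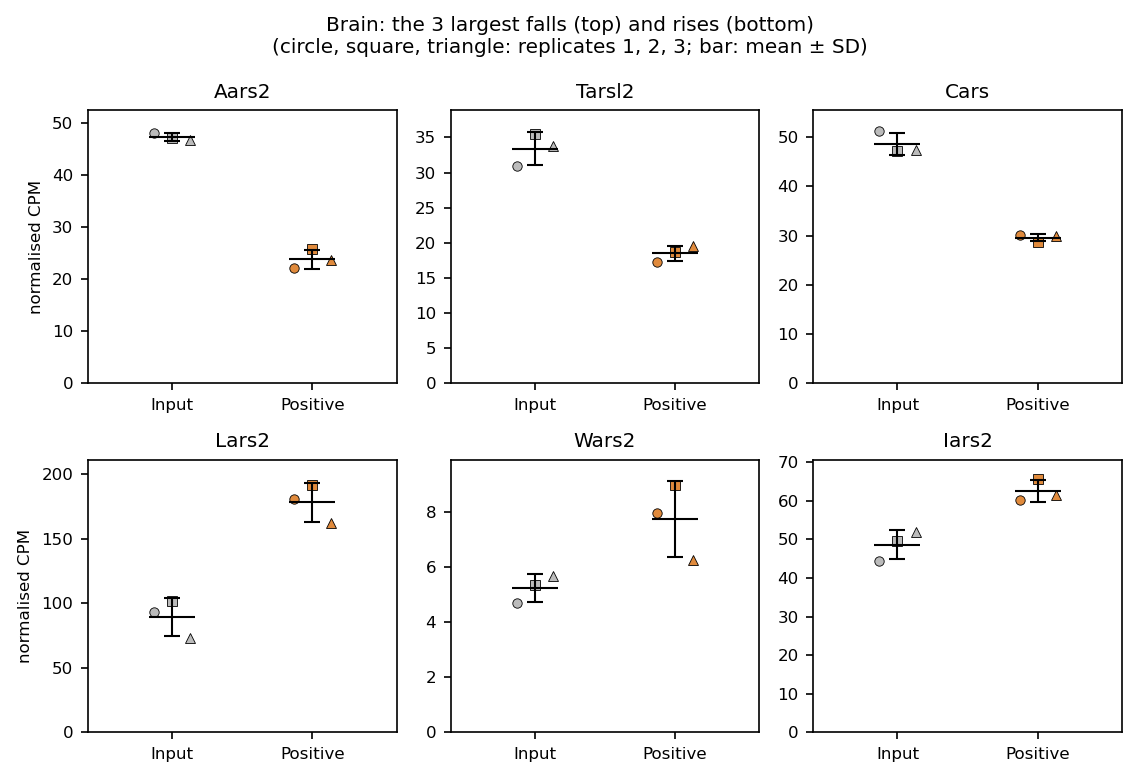
Normalised CPM in each Brain library for the synthetases with the largest decreases (Aars2, Tarsl2, Cars) and the largest increases (Lars2, Wars2, Iars2); symbols are the replicates and bars the mean ± SD. In all 6 panels the Input and Positive libraries do not overlap, which is not separate support, since the genes were chosen by their change in these libraries.

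Pairs of genes for the same amino acid were not locked together. Of 17 cytosolic and mitochondrial pairs in Brain, both genes fell in 4 (alanine, serine, tyrosine and valine), both rose in 1 (leucine) and they moved in opposite directions in 2. In the isoleucine pair Iars fell by 0.56 and Iars2 rose by 0.36. In the threonine pair Tars rose by 0.32 and Tars2 fell by 0.34. Tarsl2, the second threonyl enzyme of the cytosol, was left out of the pairs and fell by 0.85, as Tars2 did. Eprs stood in the pairs of both glutamate and proline, and Farsa without Farsb in that of phenylalanine.

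The proteins that work with the synthetases were mixed in Brain. Of 6 measured partners and trans-editing factors, 1 was higher and 2 were lower: Prorsd1, a trans-editing factor, rose by 1.42, and Eef1e1, a subunit of the multisynthetase complex, fell by 0.64. Its scaffolds Aimp1 (-0.16) and Aimp2 (-0.15) did not pass. For the step after charging, of 9 cytosolic elongation and release factors 8 were higher and 1 lower, beside 38.3% and 39.7% of all Brain genes; this list was not tested against the synthetases. Among those higher were Eef1a1, which delivers charged tRNA to the ribosome (0.86), and Eef1b2, part of its exchange factor (0.63). Of 9 genes for mitochondrial tRNA maturation and charging 4 were lower and 1 higher, with Elac2, which trims tRNA ends, down by 0.71. Of 9 mitochondrial translation factors 3 were higher and 2 were lower.

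In Retina, few synthetases differed between fractions. Of 38 genes, 1 was higher and 2 were lower, where 15.3% of all genes were higher and 10.8% lower (26.1% in all). Iars2 rose, and Iars and Mars2 fell. The median over the 38 was -0.02, against -0.03 over all genes, and the cytosolic and shared enzymes made up 0.202% ± 0.0035 (SD, n = 3) of the Retina Input counts and 0.187% ± 0.0074 of the Positive ones. The summed photoreceptor share given above overlapped between these fractions, though 4 of its 9 markers were lower in Positive.

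Mars2, the mitochondrial methionyl enzyme (chr1:55237177-55248470, plus strand), read 21.6, 20.1 and 15.5 CPM in Retina Input and 13.4, 8.59 and 8.36 in Positive. The highest Positive library lay below the lowest Input library, and the change was -0.91 ± 0.22 (adjusted p = 0.019, edgeR). Iars, the cytosolic isoleucyl enzyme (chr13:49682100-49734267, plus strand), read 89.4, 88.3 and 83.5 CPM against 66.6, 56.2 and 75.1, a change of -0.40 ± 0.11 (adjusted p = 0.031, edgeR). Iars2 read 58.8, 65.6 and 64.2 CPM against 71.2, 88.8 and 82.4, a rise of 0.36 ± 0.10 (adjusted p = 0.032, edgeR). The isoleucine pair was thus opposed in Retina as in Brain, with no overlap between fractions for either gene. All 3 calls depended on single libraries: none was left without Retina Input 1, without Retina Input 2 or without Retina Positive 2, and 4 genes passed without Retina Positive 3. At an unadjusted p under 0.05, 9 of the 38 genes passed, 3 higher and 6 lower, beside 4965 of all 12827 Retina genes.

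The remaining 35 synthetases of Retina lay between -0.28 (Aars2) and 0.21 (Farsb) on the log2 scale. Of 9 elongation and release factors 1 was higher (Eef1b2, 0.31), and of 9 mitochondrial translation factors 1 was lower (Gfm2, -0.33). Among the partners, Dtd1, which removes D-amino acids from tRNA, stood at 0.32 (adjusted p = 0.075, edgeR) and the scaffold Aimp1 at -0.21. Of 22 Atf4 targets outside the family 5 were higher and 0 lower, beside 15.3% and 10.8% of all Retina genes. Their median was -0.01. The rises were led by the amino acid transporters Slc7a5 (3.98) and Slc7a1 (2.97), which are known features of barrier endothelium.

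Whether the fold change itself differed between Retina and Brain was tested as an interaction. In a fit of the 12 Brain and Retina libraries over the 12438 genes in both tables, added after the data had been seen, 14 of the 38 synthetases had a higher Positive over Input ratio in Retina and 1 a lower one. Over all genes 28.9% were higher and 20% lower (48.8% in all), and the median difference was 0.24 for the synthetases and 0.09 for all genes. The largest were Tarsl2, by 0.88 ± 0.13 (adjusted p = 0.00016, edgeR), Aars2, by 0.75 ± 0.13, and Yars, by 0.56 ± 0.10. Each of these had fallen in Brain. In Retina Tarsl2 read 35.4, 40.7 and 37.6 CPM in Input and 35.8, 40.1 and 37.2 in Positive, and its fractions overlapped fully.

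The others included Cars and Hars (0.50 each), Sars (0.47), Nars (0.45), Farsb (0.44), Aars (0.43), Vars2 (0.42), Tars2 (0.40), Gars (0.36) and Rars (0.29). The lower one was Wars2, by 0.65 ± 0.24 (adjusted p = 0.044, edgeR), which read 15.2, 18.4 and 13.5 CPM in Retina Input and 16.4, 11.9 and 14.6 in Positive. Wars2 lost its call in 12 of 16 alternatives, Rars and Vars2 in 6 each and Tars2 in 2. With replicate number as a block 13 passed, and Wars2 did not (adjusted p = 0.083).

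**Figure D3:**
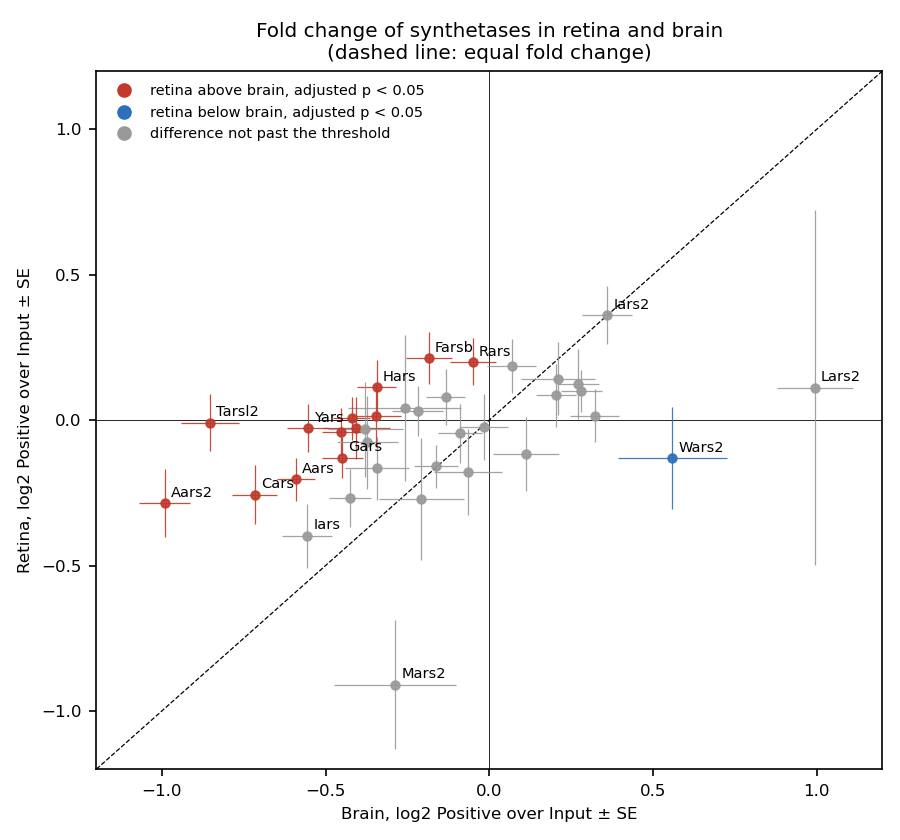
Log2 Positive over Input of 37 synthetases in Brain (x axis) and Retina (y axis), with SE bars. Red points (13) and the blue point (Wars2) differed between the tissues at an adjusted p under 0.05 in the fit of 12 libraries; the red points lie above the dashed line of equal fold change.

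Fitted with Choroid in 18 libraries over the 7270 genes of all 3 tables, the Retina to Brain interaction passed for 0 of the 19 synthetases there (29.8% of all genes: 11% higher and 18.8% lower). At an unadjusted p under 0.05, 4 passed (Hars, Nars, Sars and Yars, all higher in Retina), beside 2906 of the 7270 genes. That fit depended on the scaling. With DESeq2 size factors 7 of 19 passed, with the DESeq2 Wald test 9, and with replicate number as a block 3, all of them higher in Retina. The same change of scaling moved the median of all genes from -0.09 to 0.13 and the calls over all genes from 802 higher and 1368 lower to 1402 higher and 885 lower.

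In Choroid, Wars was the synthetase that differed between fractions. Of 18 genes, leaving out Lars2, 1 was higher and 0 were lower, where 16.3% of all genes were higher and 20.2% lower (36.6% in all). Wars, the cytosolic tryptophanyl enzyme (chr12:108860030-108894174, minus strand), read 81.3, 80.0 and 81.6 CPM in Input and 234, 92.3 and 232 in Positive. Positive 1 and Positive 3 stood far above all Input libraries, and Positive 2, the shallow library rich in Rn45s, just above them. The rise was 1.23 ± 0.30, or 2.34-fold (adjusted p = 0.0073, edgeR). Over the 12 alternatives it ran from 1.03 to 1.53, the latter without Choroid Positive 2, with adjusted p-values from 0.00011 to 0.042 (edgeR or DESeq2).

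A list of other interferon gamma response genes was not uniform beside it. Of its 12 measured genes in Choroid, 6 were higher and 3 were lower in Positive, beside 16.3% and 20.2% of all Choroid genes. Irf1 stood at 1.27, Psmb9 at 1.78 and Ifit1 at -1.97. In Brain all 13 measured genes of the list were higher (38.3% of all Brain genes), with a median of 4.02, and Wars was at -0.13 there. In Retina all 12 were higher (15.3% of all Retina genes), with a median of 3.17, and Wars was at 0.08.

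Other Choroid members pointed down or up without passing. Aars read 160, 127 and 120 CPM in Input and 120, 58.9 and 79.4 in Positive (-0.62 ± 0.27, adjusted p = 0.096, edgeR), and Yars 81.6, 55.5 and 61.3 against 51.6, 23.9 and 40.6 (-0.72 ± 0.32, adjusted p = 0.094, edgeR). With replicate number as a block both passed (adjusted p = 0.028 and 0.047), which made 3 calls of 18. Vars, the valyl enzyme, went from 37, 25.5 and 38.6 CPM to 57, 47.7 and 55.7 (0.66 ± 0.29, adjusted p = 0.095, edgeR). The fractions of Aars met at 120 CPM without overlapping, and those of Yars and Vars were apart. The authors listed genes with at least 50 counts in all libraries of 1 fraction. Aars, Yars and Vars each lay below that in the shallow Choroid Positive 2, so they were listed only through Input. The same held for Cars2, Farsb, Gars, Hars, Iars, Mars and Rars. The part of this filter in their values was not tested. At an unadjusted p under 0.05 Aars, Yars, Vars and Wars passed, beside 3437 of all 7569 Choroid genes. The other 14 genes lay between -0.58 (Cars2) and 0.42 (Eprs).

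The Choroid ratio was tested against those of the other tissues. Against Brain, 7 of 18 synthetases had a higher Positive over Input ratio in Choroid and 0 a lower one, where 21.4% of all genes were higher and 30.5% lower (51.8% in all). Wars led with a difference of 1.57 ± 0.28 (adjusted p = 0.00014, edgeR), followed by Vars with 1.05 ± 0.20, Eprs with 0.78 ± 0.19, Iars with 0.77 ± 0.21, Gars with 0.58 ± 0.19, Sars with 0.49 ± 0.15 and Hars with 0.46 ± 0.18. At an unadjusted p under 0.05 there were 8 higher and 0 lower, beside 4140 of all 7270 genes in either direction. Hars lost its call in 14 of 22 alternatives and Gars without Choroid Positive 1 (adjusted p = 0.076). Without Choroid Positive 2, 10 passed, all higher.

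Against Retina, 5 of 18 were higher in Choroid and 0 lower (21.7% and 23.3% of all genes, 45% in all). Wars differed by 1.41 ± 0.28 (adjusted p = 0.00057, edgeR), Vars by 0.85 ± 0.20, Eprs by 0.82 ± 0.19, Iars by 0.67 ± 0.21 and Kars by 0.49 ± 0.18. Here too Wars alone of the 5 passed within Choroid. Kars lost its call in 12 of 22 alternatives and Iars without Choroid Positive 3 (adjusted p = 0.066). Without Choroid Positive 2, 8 passed, 7 higher and 1 lower, and without Choroid Positive 3 there were 3. With replicate number as a block Yars passed as lower as well (adjusted p = 0.038, edgeR). Both interactions share the Choroid libraries and are not independent of each other.

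Levels within the Positive fractions were compared over the 7270 genes of all 3 tables, which had been filtered separately. Between Retina and Brain 7 of 19 synthetases were higher in Retina and 0 lower (29.5% and 27.6% of all genes, 57.1% in all), led by Mars (0.80 ± 0.21), Iars (0.69 ± 0.15) and Eprs (0.57 ± 0.15). On the scaling of all 18 libraries Mars read 46.2, 46.3 and 47.6 CPM in Brain Positive and 83.9, 69.2 and 68.4 in Retina Positive. Iars2, Aars, Nars and Rars were the others. The call count was 4 with DESeq2 size factors and fell to 3 without Brain Positive 1, Brain Positive 2, Retina Positive 1 or Retina Positive 2.

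Of these 7, Mars, Eprs, Iars2 and Iars also stood higher in whole Retina, while Aars (0.04), Nars (-0.10) and Rars (-0.02) did not pass there. Among the Input libraries, Retina was above Brain for Mars (0.55), Eprs (0.48), Iars2 (0.46) and Iars (0.45) and below it for Hars (-0.65), Yars (-0.39), Gars (-0.38), Sars (-0.28) and Farsb (-0.25), 9 of 19 in all (34.7% of all genes were higher, 32.8% lower, 67.4% in all). Sars lost its call in 6 of 13 alternatives, Farsb in 5 and Yars in 3. Mars in Input read 67.1, 74.0 and 68.7 CPM in Brain and 110, 94.8 and 103 in Retina.

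Choroid Positive differed from Brain Positive in both directions. Of 18 synthetases 4 were higher, Wars (0.95 ± 0.26), Dars (0.65 ± 0.24), Iars2 (0.61 ± 0.15) and Eprs (0.58 ± 0.16), and 5 were lower, Yars (-1.04 ± 0.20), Aars (-0.87 ± 0.20), Gars (-0.67 ± 0.18), Sars and Hars (-0.44 each). Over all genes 28.9% were higher and 24% lower (52.9% in all). Of the lower ones, all but Sars were listed in Choroid only through Input. Yars read 104, 99.2 and 105 CPM in Brain Positive and 55.5, 25.6 and 43.7 in Choroid Positive, with no overlap. Dars, at 46.8, 106 and 63.7 CPM in Choroid Positive against 45.6, 50.2 and 48.7 in Brain Positive, overlapped and lost its call in 9 of 13 alternatives.

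Against Retina Positive, Choroid Positive was lower for 10 of 18 and higher for 1 (31% and 31.4% of all genes, 62.4% in all). Aars differed most, by -1.39 ± 0.20 (adjusted p = 0.00015, edgeR), from 270, 255 and 245 CPM in Retina Positive to 129, 63.1 and 85.6 in Choroid Positive. Yars (-1.27), Mars (-0.87), Gars (-0.70), Sars (-0.68), Nars (-0.66), Iars (-0.58), Farsb (-0.54), Rars (-0.43) and Hars (-0.33) were also lower. Of these 10, all but Sars and Nars were listed in Choroid only through Input. The part of that filter in their values was not tested. Wars was the higher one, by 0.82 ± 0.26, and lost that call without Choroid Positive 1, Choroid Positive 3 or Retina Positive 1. The count of 11 was 7 without Retina Positive 1.

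**Figure D4:**
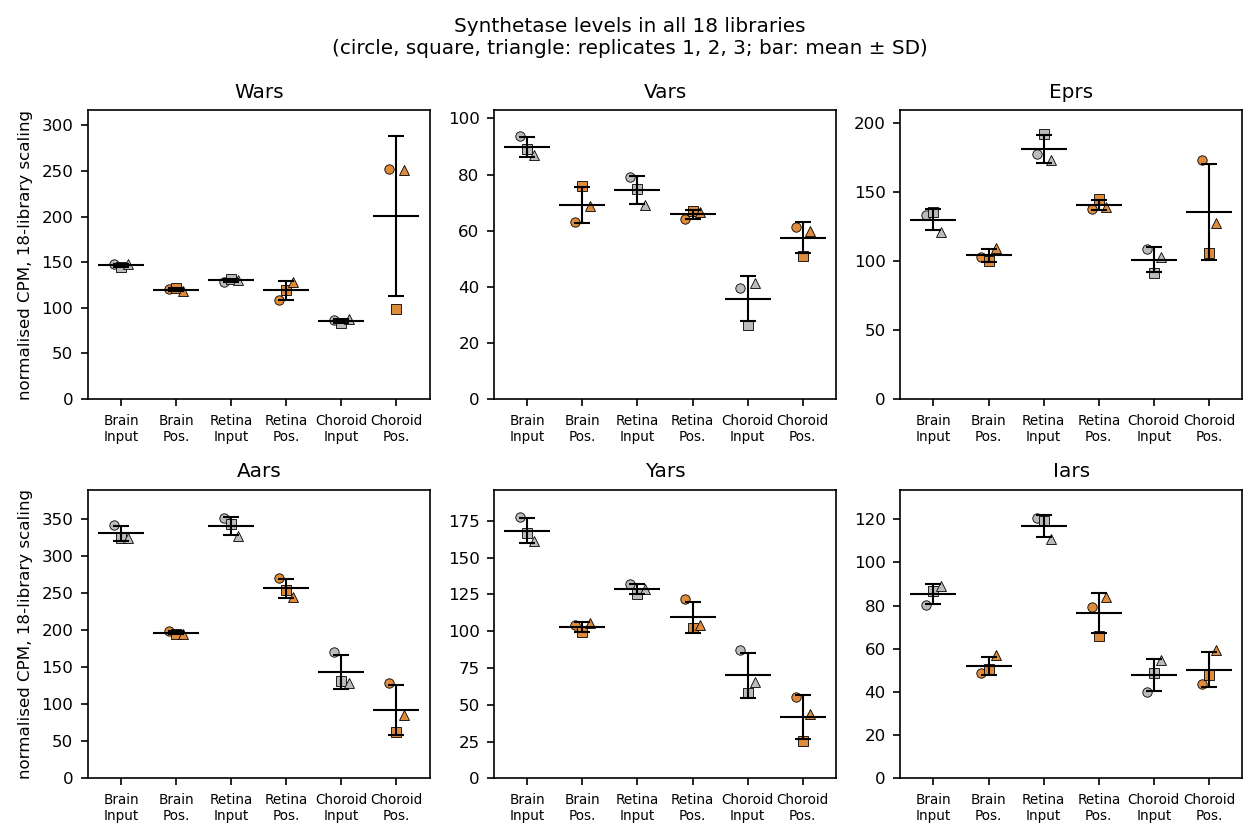
Normalised CPM of 6 cytosolic synthetases in every library of the 6 groups, on the scaling of all 18 libraries; symbols are the replicates and bars the mean ± SD. Wars is highest in Choroid Positive 1 and 3, while the means of Aars and Yars are lowest in Choroid Positive.

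Whole choroid stood below whole brain and whole retina for most synthetases. Of 18 genes, 14 were lower in Choroid Input than in Brain Input and 0 higher (37.1% and 36.6% of all genes, 73.7% in all), and 14 were lower than in Retina Input and 0 higher (44.7% and 34.8%, 79.6% in all). At an unadjusted p under 0.05 there was 1 higher gene against Brain (Iars2) and 0 against Retina, and with the DESeq2 Wald test 1 was higher in each. In either direction 15 and 14 of the 18 passed unadjusted, beside 5485 and 5860 of all 7270 genes. DESeq2 size factors moved the all-gene median of the Choroid to Retina contrast from -0.18 to -0.05, and 12 of the synthetases were then lower and 1 higher. All 9 Atf4 targets of the family that Choroid lists were lower against both tissues, with Gars at -1.41 ± 0.09 against Brain and Aars at -1.25 ± 0.11 against Retina. Gars read 202, 212 and 200 CPM in Brain Input and 81.3, 75 and 74.6 in Choroid Input. Counted over the genes of all 3 tables, the 18 synthetases made up 0.257% ± 0.0013 (SD, n = 3) in Brain Input, 0.238% ± 0.0033 in Retina Input and 0.148% ± 0.0091 in Choroid Input. In the Positive fractions the shares were 0.183% ± 0.00079 in Brain, 0.214% ± 0.0079 in Retina and 0.141% ± 0.024 in Choroid.

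Lars2, the mitochondrial leucyl enzyme (chr9:123366927-123462666, plus strand), is shown beside the ribosomal RNA precursor. Lars2 counts came to between 71 and 178 per 1000 Rn45s counts in 17 libraries and to 285 in Choroid Positive 2. The ratio was not constant: Retina Positive 1 and 2 had 0.171% and 0.165% of listed counts in Rn45s, but 0.0305% and 0.0159% in Lars2. The part of Rn45s in the Lars2 values was not tested. In Brain Lars2 read 93.2, 102 and 73.4 CPM in Input and 181, 192 and 162 in Positive (0.99 ± 0.12, adjusted p = 2.6e-05, edgeR), and Rn45s rose by 1.13 ± 0.15 beside it. In Retina it read 80.1, 84.8 and 395 CPM against 303, 165 and 136 (0.11 ± 0.61, adjusted p = 0.91, edgeR), and Rn45s changed by -0.12 ± 0.48. The single high Input library, Retina Input 3, was also the Retina library with the most Rn45s (0.313% of listed counts), and without it Lars2 passed at 1.29 (adjusted p = 0.043, edgeR).

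In Choroid Lars2 read 265, 768 and 108 CPM in Input and 278, 42132 and 1202 in Positive, with overlap between the fractions. Choroid Positive 2 alone put 3.71% of its listed counts in this gene. The fitted change was 5.26 ± 1.24 (adjusted p = 0.015, edgeR) with that library. Without it the change was 0.97 (adjusted p = 0.29, edgeR). The call was also lost without Choroid Input 1 (adjusted p = 0.057, edgeR). Rn45s in Choroid changed by 3.64 ± 1.02 with Choroid Positive 2, and its adjusted p without it was 0.38 (edgeR).

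**Figure D5:**
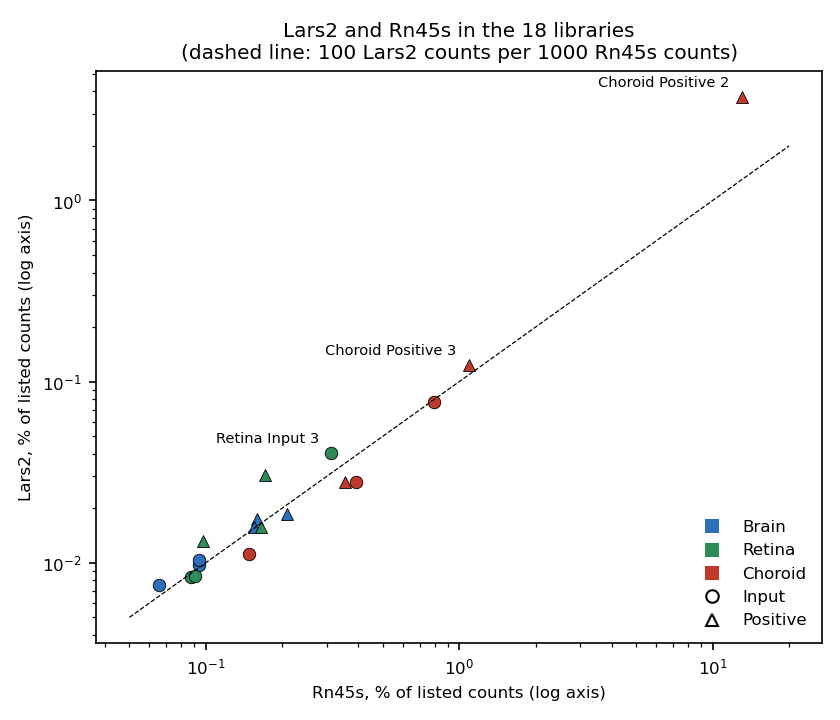
Share of listed counts in Lars2 (y axis) against Rn45s (x axis) for the 18 libraries, both on log axes; circles are Input, triangles Positive, and the dashed line marks 100 Lars2 counts per 1000 Rn45s counts. Choroid Positive 2 lies at 13% Rn45s and 3.71% Lars2, far from the other 17 libraries.

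Members whose exons overlap another annotated gene carry an uncertainty of their own, since reads of the shared bases may have been counted to either gene. Of the 38, 12 share exon bases with a neighbour, among them Iars2, and Hars with Hars2, as above, Aars with Exosc6 (1326 bases on the same strand), Vars2 with Gm20483 (296), Farsb with Sgpp2 (248), Tarsl2 with Tm2d3 (120, same strand), Fars2 with Lyrm4 (115), Ears2 with Ubfd1 (89), Mars with Ddit3 (68) and Yars with C77080 (30). The neighbours were picked for their position, after values had been seen. Sgpp2, a sphingosine phosphatase, rose by 1.07 in Brain and 1.18 in Retina, while Farsb stood at -0.18 and 0.21. Other neighbours had the sign of their synthetase, such as Ubfd1 (-0.25) and Ears2 (-0.26) in Brain. C77080 stood at -1.64 in Choroid, where Yars was at -0.72, but at 0.81 in Brain, where Yars was at -0.55. The part of shared reads in these values was not tested.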

How the data were processed

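RNA was measured in 18 libraries of 6 groups (3 tissues, Input and Positive, 3 replicates each), made with a directional kit per the labels. The authors deposited 1 table per tissue whose raw columns hold estimated counts (expected counts, not whole), limited, per the file headers, to genes with at least 50 in all samples of 1 fraction. Per the submitters' processing notes the build was mm10 and DESeq was used. The aligner, the counting tool and whether it used strand: not given in the sources used here. Counts were rounded to whole numbers and tested per tissue with edgeR 4.0.16 (R 4.3.3; TMM scaling, filterByExpr minimum count 10, quasi-likelihood test, Benjamini-Hochberg adjustment over all genes, threshold 0.05). Differences between tissues used 1 fit of 18 libraries, levels 1 fit per fraction of 9, all on the genes of all 3 tables. The fit of 12 Brain and Retina libraries was added after the data had been seen. The members, gene lists and alternatives were chosen with earlier results of these data known. Alternatives were DESeq2 1.42.0 (size factors, Wald test), other filters, a threshold of 0.01, replicate number as a block, and leaving out each library. The rule for named genes was per-library values for the 3 largest changes each way that passed in a tissue or between tissues and for Lars2, with every synthetase in the counts. Per-library values of Kars and Gars in Brain and of Aars, Yars and Vars in Choroid were added after values had been seen. Fits were tested on simulated data. Fraction pairs came from 1 homogenate per the labels' protocols, so numbers pair within a tissue. The correlations of same-numbered deviations were 0.147 to 0.190 in Brain, 0.0014 to 0.281 in Retina and 0.137 to 0.202 in Choroid. Between different numbers they ran from -0.153 to 0.013 in Brain, -0.323 to 0.180 in Retina and -0.201 to 0.066 in Choroid. In Retina the 2 ranges overlapped. Gene positions came from GENCODE (GRCm38) and promoters from RefSeq (GRCm38.p6). Some genes and promoter stretches are counted but not reported individually here.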

Additional observations from a re-analysis of the deposited data

Results flagged for a closer look

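Results are listed here where the Positive over Input change of a synthetase differed between tissues in a direct test (edgeR interaction, adjusted p under 0.05). Values are differences of log2 fold changes.

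In Retina against Brain, in the fit of 12 libraries, the difference was 0.88 for Tarsl2, 0.75 for Aars2, 0.56 for Yars, 0.50 for Cars, 0.50 for Hars, 0.47 for Sars, 0.45 for Nars and 0.44 for Farsb. It was 0.43 for Aars, 0.42 for Vars2, 0.40 for Tars2, 0.36 for Gars and 0.29 for Rars. Wars2 differed the other way, with -0.65.

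In Choroid against Brain the difference was 1.57 for Wars, 1.05 for Vars, 0.78 for Eprs, 0.77 for Iars, 0.58 for Gars, 0.49 for Sars and 0.46 for Hars. For Lars2 it was 4.46, and 0.18 without Choroid Positive 2 (adjusted p = 0.89, edgeR).

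In Choroid against Retina it was 1.41 for Wars, 0.85 for Vars, 0.82 for Eprs, 0.67 for Iars and 0.49 for Kars. For Lars2 it was 5.37, and 1.09 without Choroid Positive 2 (adjusted p = 0.37, edgeR).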

How the results depend on the processing

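The synthetase mRNAs called in Brain numbered between 24 and 26 when 1 library was left out, against 27 with all. Leaving out 1 library gave 0 to 4 calls for Retina Positive against Input, 1 to 2 for Choroid, 0 to 2 for Retina against Brain in 18 libraries and 11 to 19 in 12 libraries. It gave 6 to 10 for Choroid against Brain and 3 to 8 for Choroid against Retina. For levels it gave 3 to 9 (Positive, Retina and Brain), 7 to 9 (Positive, Choroid and Brain), 7 to 11 (Positive, Choroid and Retina), 6 to 12 (Input, Retina and Brain), 14 to 17 (Input, Choroid and Brain) and 13 to 17 (Input, Choroid and Retina). An adjusted p under 0.01 left 0 calls in Retina, and the median filter gave 2 in Choroid. With DESeq2, size factors gave 7 and the Wald test 9 for Retina against Brain in 18 libraries, the Wald test 11 for Choroid against Brain, and size factors 4 for Positive Retina against Brain. The mitochondrial share in Choroid Positive was 0.0106% without Rn45s and Lars2. Of 2657 values of single genes under an alternative, 2352 stayed called or stayed uncalled, 199 lost the call and 106 gained it. With a call in either fit, 0 reversed direction. Direction was not compared where neither fit had a call. The cause of these changes was not tested.

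With replicate number as a block, pairing Input with Positive, 3 synthetases passed in Choroid, 3 for Retina against Brain in 18 libraries and 26 in Brain, where Eprs was lost. Lars2 lost its calls for Choroid against Brain (adjusted p = 0.13, edgeR) and Choroid against Retina (adjusted p = 0.089, edgeR). Across tissues the labels do not say that numbers pair libraries. There the block gave 5 calls for Positive Retina against Brain, 10 for Positive Choroid against Retina and 7 for Input Retina against Brain. The part of depth in the Choroid counts was not tested.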
